A study of Homo sapiens
Mus musculus and Homo sapiens with 2 samples.

Results

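The genes described here are 10 components and targets of STAT3 signalling: the receptor chains IL6R and IL6ST, the transcription factor STAT3, the feedback inhibitors SOCS1, SOCS2, SOCS3 and CISH, and the genes BCL6, PIM1 and PIM3. They were found by exact symbol among the 43167 genes annotated for the A549 sample, and each of the 10 symbols matched 1 gene. The study used sci-fate, a single-cell RNA assay in which cells take up the uridine analog 4-thiouridine (S4U) and iodoacetamide then marks RNA made in that time by base changes in its cDNA. Cells of A549, an established lung adenocarcinoma line of epithelial origin, received dexamethasone, a synthetic agonist of the glucocorticoid receptor, for 2, 4, 6, 8 or 10 h at a dose given as 100 nM in the protocol and 101 nM in a label. The control culture, labelled 0 h, received the ethanol vehicle per the protocol, and every culture, control included, had 200 µM S4U in its last 2 h. The series also holds a mixture of the human embryonic kidney line HEK293T and the mouse fibroblast line NIH/3T3. Its groups had 200 µM S4U for 6 h or no S4U, each with or without iodoacetamide. The group with iodoacetamide and no S4U is used here for the background of the new RNA call.

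There was 1 culture per time and no replicate, so p-values measure only the spread between the treated cultures, which includes change over time. The 6 cultures held 1045 to 1446 cells, 28870594 to 43084614 whole counts and 5865326 to 9718958 new counts. Between 20.31% and 22.56% of a culture's counts were called new. All 9 of 9 markers of A549 cells were detected, with a summed level of 21100 to 25500 CPM, which are counts scaled to a common total in each culture. Summed levels were 0.209 to 0.416 CPM for 3 alveolar type 2 markers, 7.76 to 11.1 CPM for 5 leukocyte markers, 7.05 to 13.4 CPM for 5 fibroblast markers and 1.04 to 1.4 CPM for 2 endothelial markers. Most of the leukocyte sum was CD68, at 6.41 to 9.79 CPM, and most of the fibroblast sum COL1A1, at 5.72 to 10.8 CPM. EPCAM, 1 of the 9 A549 markers, had 3.74 to 5.94 CPM. No marker was at 0 over all cultures, and the part of any other cell type in the results was not tested.

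Cytokines of the interleukin-6 family bind a specific receptor chain such as IL6R and signal through the shared chain IL6ST, also known as gp130. JAK kinases bound to IL6ST then phosphorylate STAT3, which enters the nucleus and switches on target genes. Among these are SOCS genes, whose proteins bind the receptor or the JAKs, block the signal and hand bound proteins to a ubiquitin ligase, so the pathway limits itself. Many genes of this feedback loop have short-lived mRNAs with AU-rich elements in the 3′ untranslated region (UTR), which speed decay.

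Most of the 10 genes had a large part of their RNA made within the 2 h of labelling. The new share is the part of a gene's counts that was called new, pooled here over the 6 cultures, with an exact Clopper-Pearson 95% interval that covers counting error only. CISH had a new share of 91.7% (81.6 to 97.2, 60 counts in all), and SOCS3, the main STAT3-induced inhibitor of IL6ST signalling, had 90.4% (88.9 to 91.8). PIM3 had 85.1% (84.0 to 86.1), SOCS1 82.8% (78.0 to 86.9) and PIM1 75.4% (73.2 to 77.4). These 5 genes encode inhibitors and the related PIM serine/threonine kinases, and the interval of CISH overlapped those of SOCS3, PIM3 and SOCS1, so its place among them is not set by these counts. BCL6, a transcriptional repressor, had 68.4% (66.9 to 69.9), and IL6R had 64.0% (63.0 to 65.1). SOCS2 had 42.2% (39.5 to 45.0), STAT3 21.6% (21.2 to 22.0) and IL6ST 19.7% (19.4 to 19.9).

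Over 18574 genes with at least 100 whole counts the median new share was 28.4% and the 90th percentile 63.0%. Of the 10 genes, 8 lay above that median and 7 above that 90th percentile, and their own median was 71.9%. In the 0 h culture alone BCL6 had 62.9% and IL6R 62.3%, just under the pooled 63.0%. SOCS3 ranked 21st among the 18574 genes, PIM3 59th, SOCS1 111th, PIM1 489th, BCL6 1190th and IL6R 1696th. CISH was left out of the ranking by its 60 counts. STAT3 and IL6ST ranked 11531st and 12249th, so the transducer and its receptor chain stood in the lower part of the order, the inhibitors SOCS1 and SOCS3 near its top, and SOCS2, at 5765th, between them.

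The windows below show the stretch of each 3′ UTR, 30 bases long, that holds the most copies of an AU-rich motif. The windows are from CISH, SOCS3, PIM3 and PIM1, with high new shares, and from SOCS2, while SOCS1 held no such motif. They come from the GENCODE 29 transcripts (GRCh38), written as DNA on the transcript's strand, 5′ to 3′, and capitals mark the pentamer ATTTA or the nonamer TTATTTATT, whose copies overlap one another in runs.
CISH: tatacactatTTATTTATTTATTctccttg
SOCS3: ctttgcacatATTTAtATTTAtattcagaa
PIM3: caccggggctATTTAttgtttaATTTAttt
PIM1: tgttatgtatTTATTTATTTATTTATTtgg
SOCS2: agtccagacaTTATTTATTttatggcttta
The search was run on the transcript strand of 1 transcript per gene, the principal one or else the longest, and it was added after the shares had been seen. PIM1 held 3 nonamers, CISH 2 and SOCS2 1, while 7.51% of 18938 genes with a 3′ UTR held any and 64.4% held a pentamer. SOCS3 and PIM3 held no nonamer and 4 pentamers each in 1640 and 953 bases. That is 2.44 pentamers per kb for SOCS3, near the 2.26 over all 3′ UTRs, and 4.2 for PIM3. SOCS1 held neither motif in 426 bases and had a new share of 82.8%. IL6ST held 23 pentamers in 5987 bases and had a new share of 19.7%. The relation of these motifs to the new shares was not tested. Across the 13053 ranked A549 genes with a 3′ UTR the median new share was 38.1% for 1116 genes with a nonamer and 25.5% for 11937 without, given as a description.

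New shares of single genes moved between cultures, as the plot of new shares shows. In STAT3 the new share was 18.8%, 16.5%, 19.4%, 26.2%, 24.3% and 22.5% at 0, 2, 4, 6, 8 and 10 h, so the 3 later cultures lay above the 3 earlier ones. Over all genes the 3 later cultures were also higher, with 20.86%, 20.31%, 20.32%, 22.56%, 21.8% and 20.99% at these times. The part of that shift in STAT3 was not tested. In IL6ST it was 16.0%, 24.1%, 21.4%, 21.6%, 18.4% and 17.2% at 0, 2, 4, 6, 8 and 10 h, highest in the first treated culture and lowest in the control. In BCL6 it was 62.9% at 0 h and 76.0% at 2 h, with 65.6% to 66.8% from 4 to 10 h. PIM3 had 79.8%, 87.1%, 87.5%, 86.9%, 84.6% and 82.2% at 0, 2, 4, 6, 8 and 10 h. SOCS3 stayed between 87.0% and 91.7% in every culture, and its mean over the 6 cultures was 89.9% ± 1.99 (SD, n = 6 times).

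**Figure D1:**
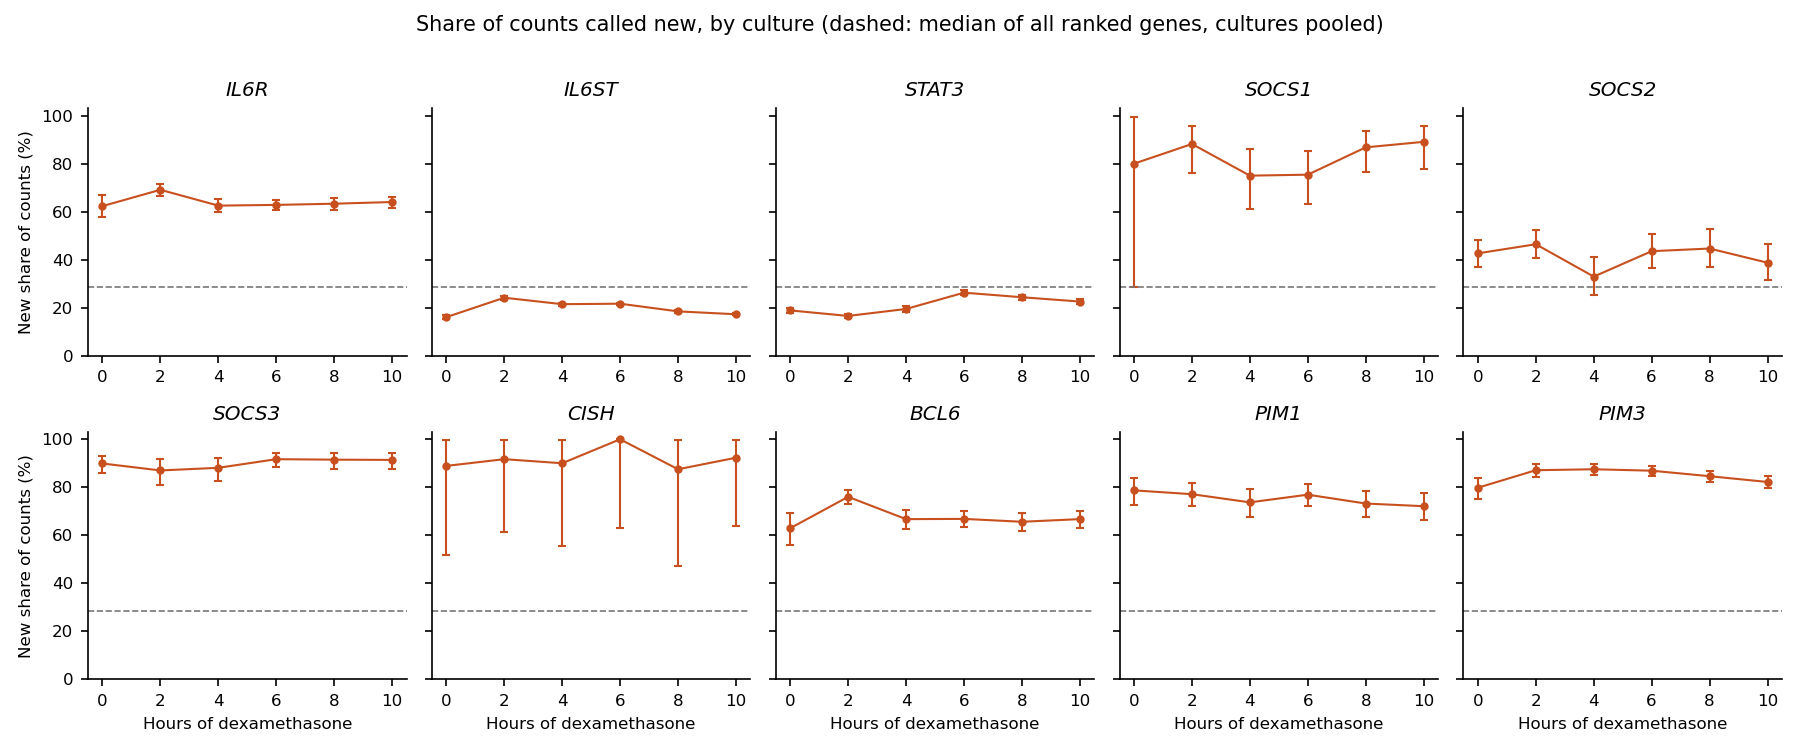
New share of counts (percent, y axis) against hours of dexamethasone (x axis) for each of the 10 genes; points are single cultures and bars exact 95% counting intervals, and the dashed line is the median of all ranked genes (28.4%). SOCS3, CISH, PIM3 and SOCS1 sit at 75.0% or above in every culture, whereas STAT3 and IL6ST lie below the line.

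The HEK293T cells gave the background of the new RNA call, since A549 cells without S4U were not analysed here. In 1025 HEK293T cells with iodoacetamide and no S4U, 24 of 2135 counts of the 10 genes were called new, which is 1.12% (0.722 to 1.67), and the share over all human genes was 1.24%. In 913 labelled HEK293T cells the new share was 87.6% (80.6 to 92.7) for PIM3, 82.8% (79.5 to 85.8) for IL6ST, 82.4% (69.1 to 91.6) for SOCS2, 80.6% (62.5 to 92.5) for PIM1 and 62.2% (56.4 to 67.7) for STAT3. SOCS1 and SOCS3 had 1 count each in these cells, and no share is read from them. HEK293T was labelled for 6 h and A549 for 2 h, so the shares of both lines stand side by side without a comparison.

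Both IL-6 receptor chains, the inhibitor SOCS1, the repressor BCL6 and the kinase PIM3 rose in new RNA after dexamethasone. A gene is called here where the edgeR quasi-likelihood test of the 5 treated cultures against the 0 h culture gave a Benjamini-Hochberg adjusted p under 0.05 over all genes tested. In new RNA 5 of 10 genes rose, beside 3.82% of the 17507 genes tested, and 0 of 10 fell, beside 2.18%. In whole RNA 4 of 10 rose, beside 0.603% of 22894 genes, and 0 fell, beside 0.275%. Pre-existing RNA is whole minus new counts, so it includes new molecules that were not called. In pre-existing RNA 1 of the 9 genes tested rose, beside 0.0533% of 20624 genes, and 0 fell, beside 0.063%. The median log2 fold change of the 10 genes was 0.674 in new and 0.474 in whole RNA, against 0.010 and 0.004 over all genes tested. The genes were chosen with earlier results of these data known, so these counts describe them and are no test of the set. They include SOCS1 in new and whole RNA, which had 4 new and 5 whole counts at 0 h. It passed the low-count filter only through the treated cultures.

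IL6R, the ligand-binding chain of the IL-6 receptor (ENSG00000160712.8), had 13.5, 34.4, 44.4, 43.0, 43.1 and 43.1 CPM in whole RNA at 0, 2, 4, 6, 8 and 10 h. Every treated culture was above the control, and the level was flat from 4 h. In new RNA, where CPM are scaled within the new counts, it had 39.5, 118, 135, 121, 127 and 131 CPM at 0, 2, 4, 6, 8 and 10 h, so the new RNA was already near its later level at 2 h. The log2 fold change was 1.69 ± 0.13 (SE) in new RNA with an adjusted p of 0.000109, and 1.63 ± 0.16 in whole RNA with 0.0049. Pre-existing IL6R was 6.43 CPM at 0 h, 13.2 at 2 h and 19.7 to 21 at later times, with a log2 fold change of 1.56 ± 0.27 and an adjusted p of 0.183. That comparison passed the threshold without the 2 h culture (1.66, adjusted p = 0.000483), with DESeq2 (5.31e-07) and without the low-count filter (0.0172). S4U was present for all of the dexamethasone time of the 2 h culture. The part of uncalled new molecules in its pre-existing IL6R was not tested.

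IL6ST, the signal-transducing chain shared by the cytokine family (ENSG00000134352.15), had 294, 342, 423, 475, 540 and 547 CPM in whole RNA at 0, 2, 4, 6, 8 and 10 h. Whole RNA was higher at each later time, while the new RNA had 220, 409, 440, 459, 462 and 449 CPM at 0, 2, 4, 6, 8 and 10 h and made most of its step by 2 h. Pre-existing IL6ST was 312, 322, 415, 489, 561 and 576 CPM at 0, 2, 4, 6, 8 and 10 h. The 2 h culture was thus near the control in pre-existing RNA and near the later cultures in new RNA. New IL6ST rose by 1.02 ± 0.10 on the log2 scale (adjusted p = 0.00055), whereas whole IL6ST had 0.67 ± 0.23 (adjusted p = 0.299). The whole RNA comparison passed the threshold without the 2 h culture (0.76, adjusted p = 0.012) and with DESeq2 (0.047).

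STAT3, the transcription factor that IL6ST activates (ENSG00000168610.10), had 182, 188, 182, 185, 204 and 209 CPM in whole RNA at 0, 2, 4, 6, 8 and 10 h. In new RNA it had 160, 155, 172, 218, 230 and 223 CPM at 0, 2, 4, 6, 8 and 10 h. The control and the 2 and 4 h cultures were close together, and the new RNA of the 3 later cultures was above them. Treated against 0 h, STAT3 had a log2 fold change of 0.10 ± 0.09 in whole RNA (adjusted p = 0.711) and 0.33 ± 0.20 in new RNA (adjusted p = 0.457).

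**Figure D2:**
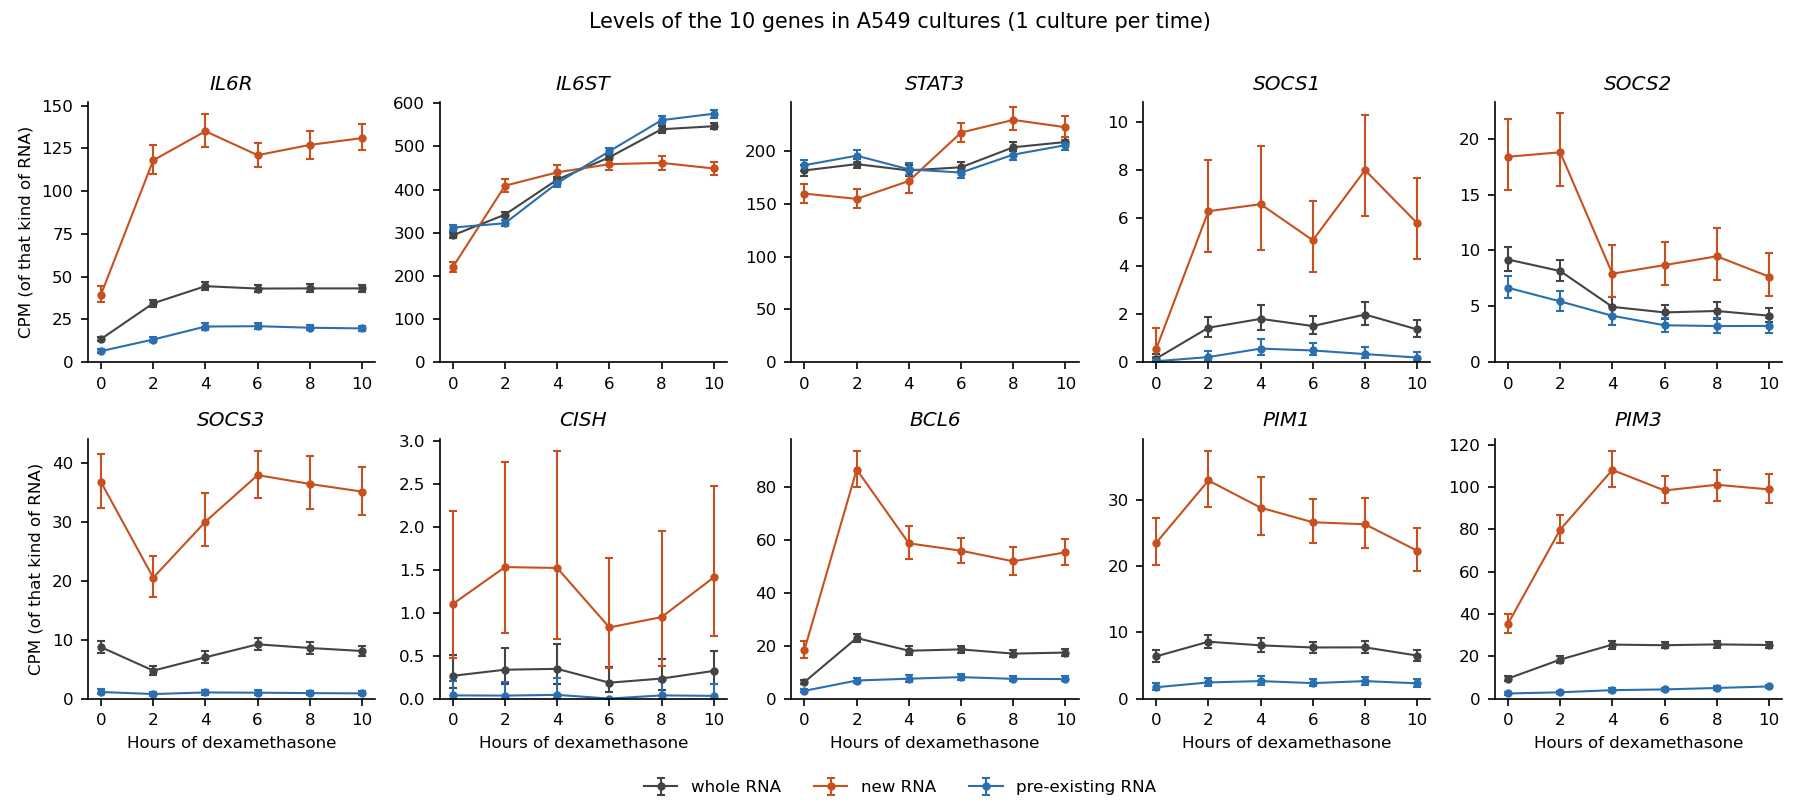
Level in CPM (y axis, linear, from 0) against hours of dexamethasone (x axis) for each gene, in whole, new and pre-existing RNA, each scaled within its own counts; points are single cultures and bars exact 95% counting intervals. IL6R, IL6ST, SOCS1, BCL6 and PIM3 stand above the 0 h culture at every treated time in new RNA, and SOCS2 stands below it from 4 h.

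The 4 inhibitors did not share a pattern. SOCS1, which blocks JAK kinases through its kinase inhibitory region (ENSG00000185338.4), had few counts: 5, 51, 52, 65, 68 and 55 whole counts at 0, 2, 4, 6, 8 and 10 h. Its level in whole RNA was 0.147 CPM at 0 h and 1.36 to 1.98 CPM in the treated cultures, which do not overlap with the control. Pooled over 2 to 10 h, the ratio to 0 h was 10.8 in whole RNA (counting interval 4.58 to 33.6) and 11.3 in new RNA (4.36 to 41.8, from 241 and 4 counts). The edgeR log2 fold change was 3.42 ± 0.41 in whole RNA (adjusted p = 0.0128) and 3.48 ± 0.48 in new RNA (adjusted p = 0.00289), and the size of the rise is only known within those wide intervals. SOCS1 passed the low-count filter, with its minimum count of 10, only through the treated cultures, where it was high.

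SOCS1 overlaps RMI2 on the opposite strand, and no source used here says whether the counting used strand. RMI2 had 879 whole counts at 0 h and 686 to 1064 at the treated times, with a log2 fold change of -0.12 (adjusted p = 0.891). Its counts were above the control at 2 and 6 h and below it at 4, 8 and 10 h. Genes on the opposite strand also overlap CISH, IL6R, IL6ST and BCL6. The one opposite BCL6, RP11-211G3.3, had 9 whole counts at 0 h, 32 at 2 h and 11 to 17 at the later times, highest at 2 h as BCL6 was, with a log2 fold change of 0.89 (adjusted p = 0.655). In whole RNA the log2 fold change was 0.54 for CTD-2031P19.5 opposite IL6ST (adjusted p = 0.503), 0.16 for MAPKAPK3 opposite CISH (0.629) and 0.30 for RP11-350G8.5 opposite IL6R (0.861). The part of such reads in the values of the 10 genes was not tested.

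SOCS2, known as the inhibitor of growth hormone signalling (ENSG00000120833.9), had 9.19, 8.16, 4.95, 4.45, 4.58 and 4.16 CPM in whole RNA at 0, 2, 4, 6, 8 and 10 h. The 2 h culture was close to the control and the 4 later cultures were at about the same lower level. New SOCS2 had 18.4, 18.8, 7.92, 8.69, 9.48 and 7.66 CPM at 0, 2, 4, 6, 8 and 10 h. The ratio of the 10 h culture to 0 h was 0.452 (counting interval 0.373 to 0.548) in whole and 0.417 (0.305 to 0.566) in new RNA. Treated against 0 h, the log2 fold change was -0.80 ± 0.32 in whole RNA (adjusted p = 0.357) and -0.80 ± 0.40 in new RNA (adjusted p = 0.332). Without the 2 h culture SOCS2 passed the threshold in whole (-1.01, adjusted p = 0.00369), new (-1.11, 0.00207) and pre-existing RNA (-0.94, 0.0339). The antisense gene SOCS2-AS1, which could share reads with it, had a log2 fold change of -0.38 in whole RNA (adjusted p = 0.636).

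SOCS3 (ENSG00000184557.3) had 8.72, 4.74, 7.0, 9.20, 8.58 and 8.07 CPM in whole RNA at 0, 2, 4, 6, 8 and 10 h. In new RNA it had 36.7, 20.5, 30, 37.9, 36.4 and 35.1 CPM at 0, 2, 4, 6, 8 and 10 h. The 2 h culture was the lowest in both, and the cultures from 6 h were close to the control. The ratio of 2 h to 0 h was 0.543 (counting interval 0.447 to 0.658) in whole and 0.559 (0.454 to 0.686) in new RNA, and the single culture at 2 h leaves this dip without a replicate check. All treated cultures against 0 h gave -0.21 ± 0.30 in whole RNA (adjusted p = 0.835) and -0.18 ± 0.27 in new RNA (adjusted p = 0.792). CISH, an inhibitor best known from STAT5 signalling (ENSG00000114737.11), had 8 to 13 whole counts per culture and a ratio of 1.05 (0.514 to 2.43) over 2 to 10 h, so a change within that interval was not detectable at this depth.

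BCL6 (ENSG00000113916.13) had 6.28, 22.9, 18.1, 18.6, 17.0 and 17.4 CPM in whole RNA at 0, 2, 4, 6, 8 and 10 h. In new RNA it had 18.5, 86.6, 58.7, 55.9, 51.9 and 55.3 CPM at 0, 2, 4, 6, 8 and 10 h. All treated cultures were above the control, and the 2 h culture was above the other 4. The log2 fold change was 1.74 ± 0.29 in new RNA (adjusted p = 0.00736), 1.59 ± 0.19 in whole RNA (adjusted p = 0.0116) and 1.34 ± 0.16 in pre-existing RNA (adjusted p = 0.0338). BCL6 was the 1 gene of the 10 called in pre-existing RNA, from 2.94 CPM at 0 h to 6.83 at 2 h and 7.37 to 8.11 from 4 to 10 h. That call was lost without any one of the 4, 6, 8 or 10 h cultures (adjusted p 0.102 to 0.153) and with an equal number of cells per culture (0.0779). S4U was present for all of the dexamethasone time of the 2 h culture. The part of uncalled new molecules in its pre-existing BCL6 was not tested.

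PIM3 (ENSG00000198355.4), a kinase that promotes survival and growth, had 9.46, 18.4, 25.5, 25.2, 25.6 and 25.3 CPM in whole RNA at 0, 2, 4, 6, 8 and 10 h. In new RNA it had 35.3, 79.8, 108, 98.3, 101 and 98.8 CPM at 0, 2, 4, 6, 8 and 10 h. The 2 h culture lay between the control and the level that held from 4 h. The log2 fold change was 1.47 ± 0.17 in new RNA (adjusted p = 0.00139) and, for the whole RNA, 1.35 ± 0.20 (adjusted p = 0.0263). The whole RNA call was lost without any one of the 4, 6, 8 or 10 h cultures, with log2 fold changes of 1.325 to 1.331 and adjusted p from 0.0548 to 0.0892.

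PIM1 (ENSG00000137193.9), the related kinase and a classic STAT3 target, had 6.37, 8.58, 8.03, 7.71, 7.73 and 6.49 CPM in whole RNA at 0, 2, 4, 6, 8 and 10 h. The treated cultures were slightly above the control, and the 10 h culture was level with it. The log2 fold change was 0.28 ± 0.17 in whole RNA (adjusted p = 0.543) and 0.23 ± 0.20 in new RNA (adjusted p = 0.621). The difference between PIM3 and PIM1 was not tested. STAT3, SOCS3, PIM1 and PIM3 overlap no other annotated gene.

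**Figure D3:**
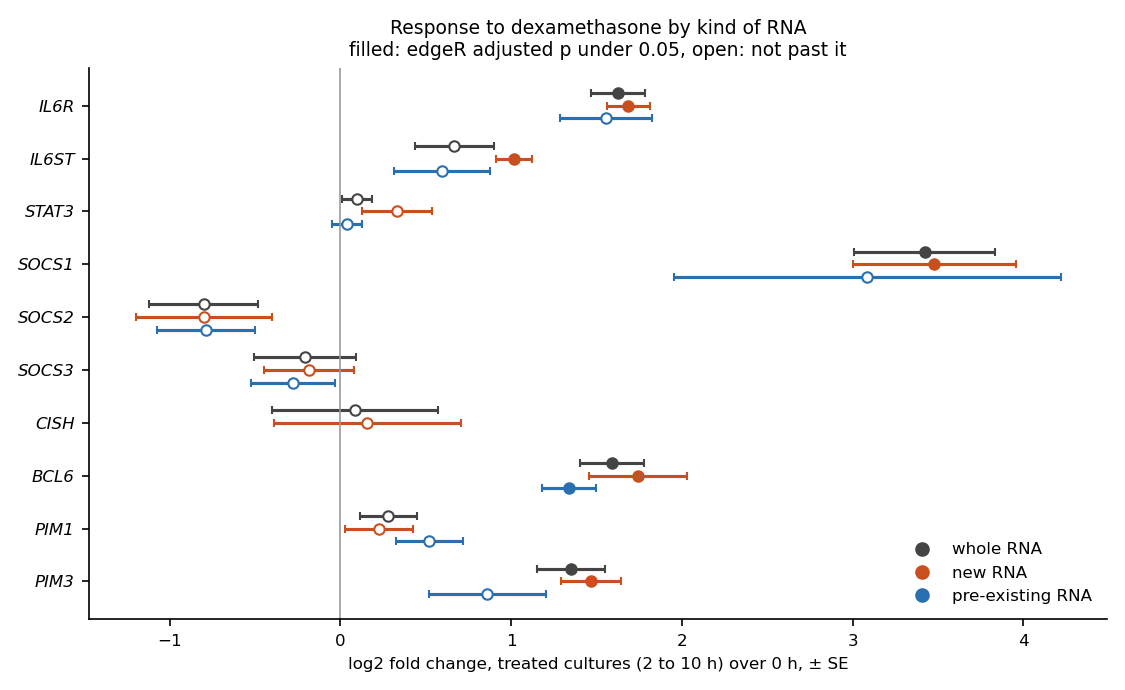
Log2 fold change of the treated cultures over 0 h with its standard error (x axis) for each gene (y axis) in whole, new and pre-existing RNA, filled where the adjusted p was under 0.05; CISH was not tested in pre-existing RNA. SOCS1 stands farthest to the right with wide errors, and IL6ST is filled in new RNA only.

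A slope over the 5 treated times asked whether levels went on changing under dexamethasone. In whole RNA IL6ST rose by 0.085 ± 0.010 log2 units per hour (adjusted p = 0.00103) and SOCS2 had a negative slope of -0.109 ± 0.028 (adjusted p = 0.0323). That is 1 of 10 genes up, beside 6.1% of 21493 genes, and 1 of 10 down, beside 6.53%. In new RNA STAT3 had a slope of 0.074 ± 0.015 (adjusted p = 0.0104) and BCL6 one of -0.077 ± 0.020 (adjusted p = 0.0377), which is 1 of 10 up, beside 3.55% of 16366 genes, and 1 of 10 down, beside 4.15%. With 1 gene in each direction, these counts do not set the 10 genes apart from all genes.

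IL6ST kept its slope in whole RNA in each fit without 1 culture. The SOCS2 slope rested on the 2 h culture: without it the slope was -0.037 (adjusted p = 0.552), and it also missed the threshold without 8 h (0.0896) or 10 h (0.0562). The BCL6 slope in new RNA was lost without 2 h (-0.020, adjusted p = 0.665) or 8 h (0.149), and it turned positive with the 0 h culture included as a time (0.033, adjusted p = 0.834). The STAT3 slope was lost without 8 h (0.069, adjusted p = 0.0684). In SOCS3 the slope was 0.086 ± 0.032 in whole RNA (adjusted p = 0.124) and 0.085 ± 0.028 in new RNA (adjusted p = 0.0903). It passed the threshold without the low-count filter in whole (0.032) and new RNA (0.00209), and in whole RNA without the 10 h culture (0.0464).

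Whether new RNA responded more than pre-existing RNA was tested as an interaction in edgeR with a term for each culture. At the adjusted threshold 0 of 10 genes were called, beside 0.0% of 22440 genes. Before adjustment the edgeR p was under 0.05 in 2 of the 10 genes, beside 1216 of the 22440 genes tested. These were PIM3, where new RNA changed by 0.63 ± 0.27 log2 units more (adjusted p = 0.901), and IL6ST, by 0.47 ± 0.20 (adjusted p = 0.894). IL6ST passed the threshold without the low-count filter (0.49, adjusted p = 0.0411). The adjusted p of its other alternatives, RLE factors and each fit without 1 culture, was not past the threshold.

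In single cells the levels were followed as the share of cells with at least 1 whole count, after each cell had been thinned to 10000 counts. Cells with fewer counts, 19 to 48 per culture, were left out. IL6R had a count in 11.6%, 27.6%, 36.7%, 32.8%, 34.8% and 34.7% of cells at 0, 2, 4, 6, 8 and 10 h (counting interval 9.77 to 13.6 at 0 h), against 29.5% and 61.2% at 0 and 10 h before thinning. Every treated culture was above the control.

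BCL6 was seen in 5.35% of cells at 0 h, 17.5% at 2 h and 14.8% to 15.5% from 4 to 10 h. PIM3 went from 8.16% at 0 h to 16.3% at 2 h and 20.3% to 20.9% at the 4 later times. SOCS2 had 8.34%, 7.18%, 3.94%, 3.85%, 3.14% and 3.10% at 0, 2, 4, 6, 8 and 10 h. The control was the lowest culture for BCL6 and PIM3 and the highest for SOCS2, both here and in whole RNA CPM, while the order of the treated cultures differed in part between both measures.

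SOCS3 had a count in 7.62% (6.12 to 9.34), 3.59% (2.60 to 4.82), 5.91%, 8.51%, 6.88% and 6.98% of cells at 0, 2, 4, 6, 8 and 10 h. Its 2 h value was the lowest, as in the CPM. SOCS1 was seen in 2 of 1103 cells at 0 h, which is 0.181% (0.022 to 0.653), and in 1.08% to 2.18% of cells at the treated times. The A549 sample is labelled with 1 cell line only, so the share that stray RNA alone would give was not measured there. In the mixture, 9 of 3089 NIH/3T3 cells, which are mouse, had a human SOCS1 count, or 0.291% (0.133 to 0.552). These cells were not thinned and had a median of 7549 counts. Each other gene of the 10 was seen in 0 to 3 of them. The labelled HEK293T cells of the mixture had 1 SOCS1 count, and those with iodoacetamide and no S4U had 7. The source of the counts in mouse cells was not tested, so they, at another depth, set no background level for the A549 control. In A549 cells IL6ST and STAT3 were seen in most cells throughout, in 90.2% and 77.6% at 0 h and in 98.4% and 81.8% at 10 h.

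**Figure D4:**
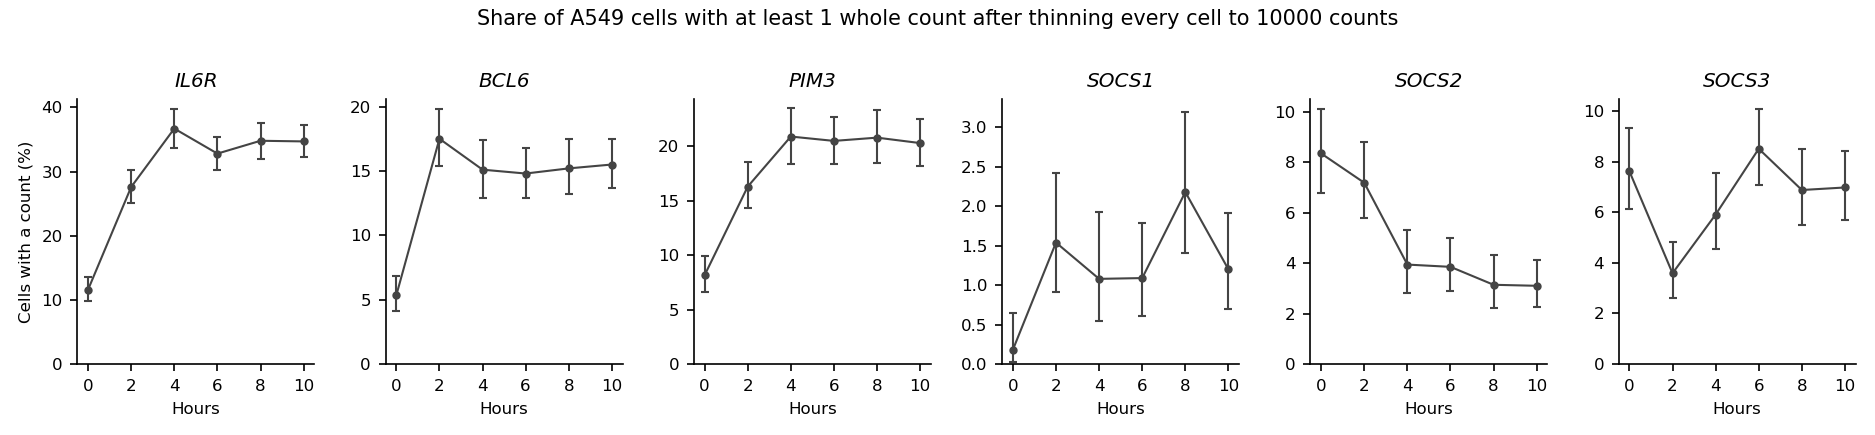
Share of cells with at least 1 whole count after thinning (percent, y axis, each from 0) against hours of dexamethasone (x axis) for 6 genes; points are single cultures and bars exact 95% counting intervals. The shares of IL6R, BCL6 and PIM3 are higher at every treated time than at 0 h, and SOCS3 is lowest at 2 h.

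The other genes of the pathway were taken from a list of 87 cytokines, receptors, kinases, STATs, inhibitors, ligase subunits and targets. This list too was chosen with earlier results of these data known, so its counts are no test of it. In new RNA 14 of the 72 genes tested rose, beside 3.82% of all genes tested, and 3 fell, beside 2.18%. In whole RNA 3 of 79 rose, beside 0.603%, and 1 fell, beside 0.275%. In pre-existing RNA 1 of 78 rose, beside 0.0533%, and 0 fell, beside 0.063%. Their median log2 fold change was 0.127 in new and 0.101 in whole RNA.

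Among the cytokines, 2 of 3 tested in new RNA fell and 0 rose. IL11, a member of the IL-6 family that also signals through IL6ST, had 36.2 CPM in new RNA at 0 h, 4.05 at 2 h and 0.517 to 1.18 from 4 to 10 h. Its log2 fold change was -4.65 ± 0.49 in new RNA (adjusted p = 0.000699) and, for the whole RNA, -4.05 ± 0.60 (adjusted p = 0.0261). The whole RNA call was lost without any one of the 4, 6, 8 or 10 h cultures (0.0604 to 0.0952). LIF, a further ligand of that chain, went from 33.0 CPM of new RNA at 0 h to 17.2 to 21.1 in the treated cultures, a log2 fold change of -0.76 ± 0.14 (adjusted p = 0.0131). IL6 itself had 4 whole counts over all cultures, so nothing can be said of it at this depth.

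Of the other receptors 4 of 16 tested rose in new RNA and 1 fell. LIFR, the partner of IL6ST for LIF, rose most of these, from 32.0 CPM at 0 h to 82.0 at 2 h and 106 at 8 h, with 1.71 ± 0.20 on the log2 scale (adjusted p = 0.00143). LEPR, the leptin receptor, had 1.02 ± 0.18, IL13RA1 0.68 ± 0.13 and EGFR 0.68 ± 0.13, and IL4R fell by 0.90 (adjusted p = 0.0179). Without the 6 h culture IL4R missed the threshold (0.0546). OSMR, the oncostatin M receptor, had 0.14 ± 0.21 in new RNA (adjusted p = 0.798).

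JAK1, the main kinase at IL6ST, was the 1 of 10 kinases and STATs called in new RNA. It had 205 CPM at 0 h and 333 to 397 CPM in the treated cultures, a log2 fold change of 0.86 ± 0.11 (adjusted p = 0.00187) and, for the whole RNA, 0.39 ± 0.15 (adjusted p = 0.327).

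Of 14 other inhibitors, 1 rose in new RNA and 0 fell. This was PIAS1, a SUMO ligase that restrains STATs, with 0.81 ± 0.13 (adjusted p = 0.0058). The remaining SOCS genes were not called against 0 h: in new RNA SOCS4 had -0.14, SOCS5 -0.26, SOCS6 0.06 and SOCS7 -0.10, with adjusted p from 0.408 to 0.857. SOCS5 had a slope of 0.052 ± 0.012 per hour in new RNA (adjusted p = 0.0168) and SOCS6 one of 0.045 ± 0.011 in whole RNA (adjusted p = 0.0331). Of the 4 subunits of the ligase that SOCS boxes recruit, TCEB1 (elongin C) rose by 0.72 ± 0.15 in new RNA (adjusted p = 0.0219), a call lost without the 6 or 8 h culture (0.0557 and 0.0501).

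The STAT3 target list had 7 of 20 tested genes up in new RNA, beside 3.82% of all genes, and 0 down, beside 2.18%. In whole RNA 3 of 24 were up, beside 0.603%. The median log2 fold change of the list was 1.03 in new and 0.88 in whole RNA, against 0.010 and 0.004 over all genes. CEBPD, a transcription factor of the acute phase, went from 59.1 CPM in new RNA at 0 h to 163 at 2 h and 179 to 200 later, with 1.63 ± 0.14 (adjusted p = 0.000193). It was the 1 gene of the list called in pre-existing RNA, with 1.65 ± 0.20 (adjusted p = 0.0338). Its relative CEBPB had 1.37 ± 0.11, and the survival genes MCL1 and BCL2L1 had 1.02 ± 0.12 and 1.03 ± 0.18 in new RNA. NNMT, a methyltransferase, had 2.04 ± 0.36, and the fibrinogen chains FGA and FGB had 2.58 ± 0.63 and 2.04 ± 0.47. The fibrinogen calls were lost without any one of the 4, 6 or 8 h cultures (0.0541 to 0.0973), and MCL1 in whole RNA (0.98 ± 0.16, adjusted p = 0.0405) without any one of the 4, 6, 8 or 10 h cultures (0.0739 to 0.118). Many of these genes are regulated by several pathways, so a place on the list is no measure of STAT3 activity. The target list was chosen with earlier results of these data known, so its counts describe it only.

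The slope of the same targets was up in 9 of 22 in whole RNA, beside 6.1% of all genes, and down in 1, beside 6.53%. In new RNA it was up in 8 of 20, beside 3.55%, and down in 1, beside 4.15%. FGA had whole RNA levels of 30.1, 40.5, 71.5, 101, 156 and 193 CPM at 0, 2, 4, 6, 8 and 10 h, a slope of 0.279 ± 0.016 per hour (adjusted p = 2.3e-05). SAA1, an acute phase protein, had 0.295 CPM at 0 h and 10.8 at 10 h, with a slope of 0.592 ± 0.043 (adjusted p = 9.2e-05). BIRC5, which is made in dividing cells, had the negative slope, -0.026 ± 0.007 (adjusted p = 0.0328). Over all 87 listed genes the slope was up in 22 and down in 2 of 75 tested in whole RNA, and up in 14 and down in 1 of 70 in new RNA.

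**Figure D5:**
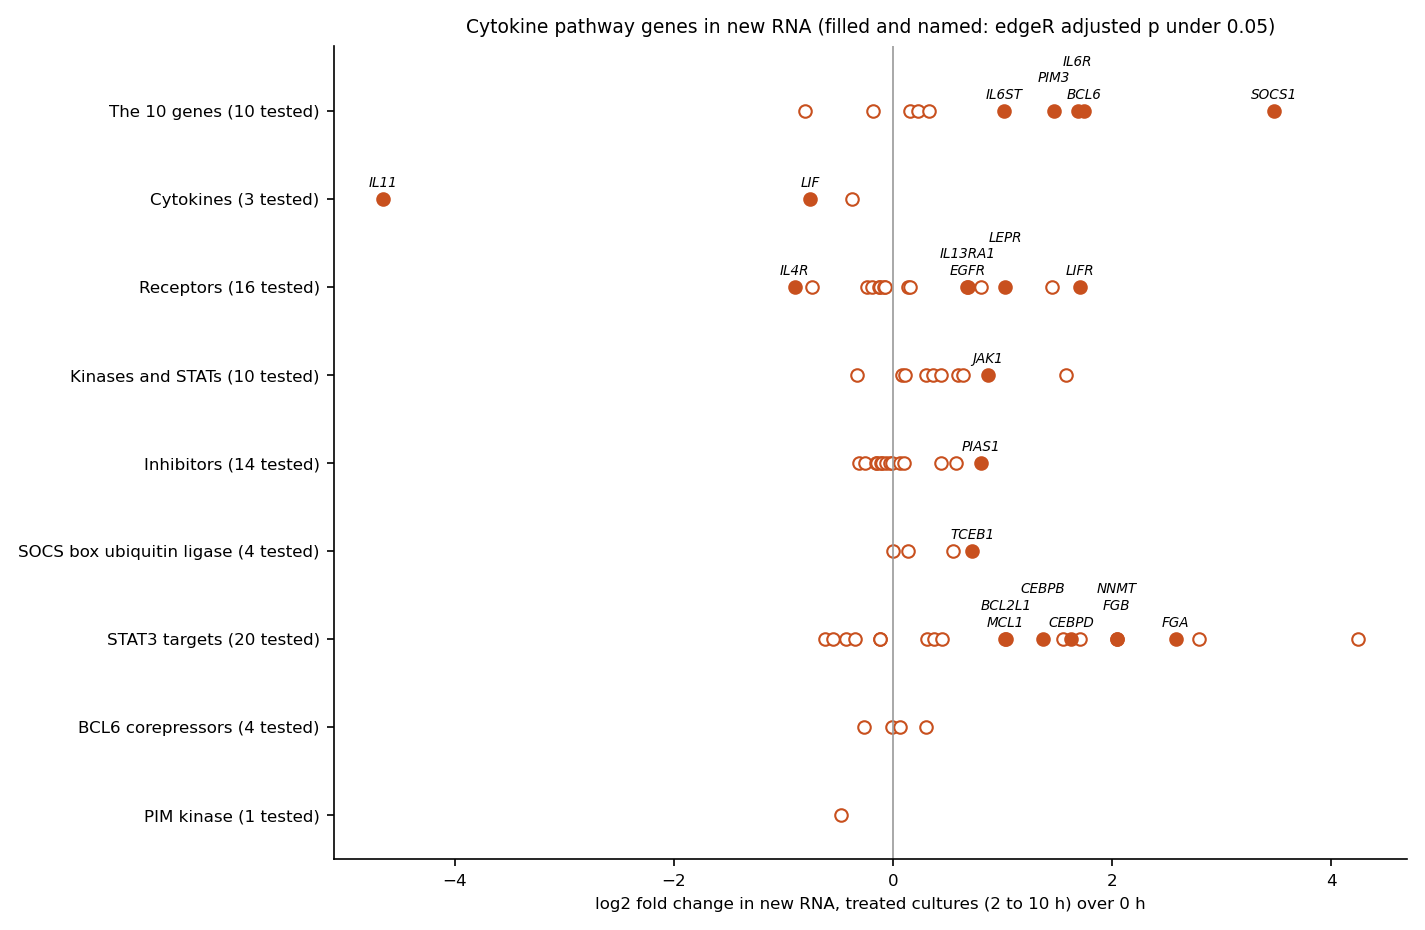
Log2 fold change in new RNA, treated cultures over 0 h (x axis), for the 10 genes and for each list of other pathway genes (y axis); each point is a gene, filled and named where its adjusted p was under 0.05. Both called cytokines lie left of 0, and all 7 called targets of the STAT3 list lie right of it.

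The genes whose profile over the 6 cultures in new RNA was nearest to that of IL6R, IL6ST and PIM3 were sought among 14217 genes with at least 100 new counts. The measure was the root mean square distance of centred log2 CPM. For IL6R these were FOXO3 (0.0513), IRS2 (0.085) and IL17RC (0.0878), where the median gene was at 0.645. For IL6ST they were PTPRM (0.0263), DNAJC6 (0.0314) and DGKH (0.0387), with a median of 0.41, and for PIM3 they were FBLN1 (0.0496), UCP2 (0.0695) and RHOB (0.0775), with a median of 0.575. The distances describe 6 cultures that all genes share.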

How the data were processed

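The deposited values are unnormalized counts of each gene in each cell, in one matrix for all RNA (whole) and one, per the file headers, for the RNA that the authors called newly synthesised. The submitters' processing notes name Trim Galore 0.4.1, STAR 2.5.2b, SAMtools 1.3, Picard 1.105 and the hg19 and mm10 builds. No source used here gives how duplicates were collapsed, how new RNA was called or whether counting used strand. New counts exceeded whole counts in 0 entries, so pre-existing counts are whole minus new, and they include new molecules that were not called.

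Whole counts of the 7404 cells were summed by dexamethasone time, as the deposited cell annotation gives it, and cells were never replicates. Sums were tested in R 4.3.3 with edgeR 4.0.16, by its quasi-likelihood test (TMM, filterByExpr with a minimum count of 10, Benjamini-Hochberg over all genes tested, threshold 0.05), with 4 residual degrees of freedom against 0 h and 3 for the slope in hours. The fit takes the spread of the single 0 h culture to equal that among treated cultures. CPM use TMM library sizes of each kind of RNA. The scripts were tested on simulated data. Shares carry exact 95% Clopper-Pearson intervals and ratios exact counting intervals.

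Members were matched by symbol, and the members and lists were chosen with earlier results of these data known. Pathway genes are named where they passed the threshold in whole or new RNA against 0 h, with IL6, LIF, OSMR, JAK1 and SOCS4 to SOCS7 named in any case (another gene of that rule is not reported here); those named for a slope were chosen after their values were seen. The 3 nearest profiles were taken for the 3 members with the lowest adjusted p in new RNA. Alternatives were DESeq2 1.42.0, upper-quartile or RLE factors, no low-count filter, equal cell numbers, 0 h in the slope, each treated culture left out, other poolings of the new share and other thinning. Doublets were not called here, and a planned search of promoter motifs was not run. 3′ UTR motifs were searched in GENCODE 29 transcripts.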

Additional observations from a re-analysis of the deposited data

Results flagged for a closer look

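Of 26 series of the 5 treated cultures, one for each gene and kind of RNA, 7 had 1 culture far from the other 4, and in each of the 7 this was the 2 h culture. Among replicates chance gives about 1 such series in 20. The treated cultures are different times and the kinds of RNA of a gene share counts, so that rate does not hold for these series.

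SOCS2 at 2 h had 8.16 CPM in whole RNA, above 4.16 to 4.95 in the 4 later cultures, and 18.8 CPM in new RNA, above 7.66 to 9.48. BCL6 at 2 h had 22.9 CPM in whole RNA, above 17.0 to 18.6, and 86.6 CPM in new RNA, above 51.9 to 58.7. IL6R at 2 h had 34.4 CPM in whole RNA, below 43.0 to 44.4, and 13.2 CPM in pre-existing RNA, below 19.7 to 21. PIM3 at 2 h had 18.4 CPM in whole RNA, below 25.2 to 25.6. The 2 h culture therefore stood nearer to 0 h than the later cultures in SOCS2, IL6R and PIM3 and farther from it in BCL6.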

How the results depend on the processing

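Against 0 h, the number of the 10 genes called in new RNA was 5 under DESeq2, upper-quartile factors, no filter and equal cells, and 5 to 6 in fits without 1 treated culture. In whole RNA it was 4 or 5 under those settings and 3 to 6 without 1 culture. In pre-existing RNA the 1 call became 2 with DESeq2, 2 without the filter, 0 with equal cells and 0 to 3 without 1 culture. The slope in whole RNA called 1 to 2 genes without 1 culture; in new RNA it called 4 without the filter, 1 with 0 h included and 0 to 3 without 1 culture. Without the filter 1 gene was called in the comparison of new with pre-existing RNA. The BCL6 slope called in new RNA (-0.077) turned to 0.033 with 0 h included as a time, where the level is the lowest. Slopes that were not called also changed sign: BCL6 in whole RNA had 0.055 with 0 h included, and SOCS1 in whole RNA had -0.001 with upper-quartile factors. Without 1 culture the slopes in whole RNA ran from -0.040 to 0.058 for SOCS1, -0.126 to 0.012 for CISH, -0.008 to 0.045 for IL6R and -0.002 to 0.068 for PIM3. In new RNA they ran from -0.022 to 0.037 for SOCS1, -0.149 to 0.009 for CISH, -0.004 to 0.020 for IL6R and -0.021 to 0.041 for PIM3. The difference between new and pre-existing SOCS2 ran from -0.124 to 0.075.

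Over all genes, 138 rose and 63 fell in whole RNA against 0 h, but 931 and 669 without the 2 h culture, 548 and 233 with DESeq2, 302 and 149 without the filter and 57 and 18 without 6 h. In new RNA 669 rose and 381 fell, but 1176 and 846 without 2 h and 428 and 201 without 6 h. In pre-existing RNA 11 rose and 13 fell, against 136 and 47 with DESeq2, 463 and 304 without 2 h and 0 and 5 without 4 h. Slopes were up in 1311 and down in 1404 genes in whole RNA, and in 713 and 701 without 8 h. In new RNA they were up in 581 and down in 680, and in 225 and 281 without 8 h. The comparison of new with pre-existing RNA went from 0 to 128 up and 55 down without the filter. The other pathway genes called in whole RNA were 4, or 10 with DESeq2, 7 without the filter and 2 to 22 without 1 culture. The cause of these shifts was not tested. The new share of the 0 h culture alone was 16.0% for IL6ST, 62.9% for BCL6, 78.7% for PIM1 and 79.8% for PIM3, each farther from the pooled share than the SD between cultures; the other 6 genes were within it. Thinning to 5000 counts per cell lowered the share of cells in each gene and time except CISH at 8 h. Depth limits SOCS1 and CISH most. No paired analysis was possible because each time has 1 culture.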
